A study of Homo sapiens with 8 samples.

Results

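Control cells of the human prostate cancer lines LNCaP and PC3 were compared gene by gene, with 2 LNCaP GFP arrays set against 2 PC3 GFP arrays out of the 8 arrays of the series. LNCaP GFP and PC3 GFP cells expressed green fluorescent protein and served as controls for LNCaP Notch1 and PC3 Notch1 cells, in which activated Notch1, a receptor made active in the absence of its ligand, was expressed acutely. LNCaP was derived from a lymph node metastasis and responds to androgen, and PC3 was derived from a bone metastasis and grows without it. RNA was hybridised to Affymetrix U95Av2 arrays, and levels are given as log2 expression, so that a difference of 1 is a 2-fold difference. Every difference is LNCaP minus PC3. Both control groups carry GFP, the vector that carried it in the array experiment is not given in the sources used here, and the methods state that 2 chips were run for each sample, so the p-values rest on differences between chips that may be technical alone. With 1 line of each kind, the difference between the lines and a difference in androgen response cannot be told apart.

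Secretory luminal cells line the prostate gland and make kallikreins, acid phosphatase and citrate under the control of the androgen receptor, a steroid-activated transcription factor. They are joined by E-cadherin, which the catenins tie to actin, whereas basal cells rest on laminin through integrins and make proteases of the urokinase system. Tumour lines that grow without androgen often keep little of the luminal program, and the lines also differ in p53 function and in the proteins of the adherens junction.

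The model was limma on all 8 arrays, with 1 mean per group, and a probe set was called at a Benjamini-Hochberg adjusted p under 0.05 over 12558 probe sets. Of these, 5067 were called higher in LNCaP and 2319 lower, which is 40.3% and 18.5%, or 58.8% together. At a difference of at least 2-fold the counts were 2108 and 1057, or 16.8% and 8.42%. For each of 8226 genes the brightest probe set, by mean level over all arrays, was used. By that rule, 1412 genes were called and at least 2-fold higher in LNCaP (17.2%) and 752 were lower (9.14%), and these percentages are the background for every count below.

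The excess on the LNCaP side came with an offset between the arrays. The array medians were 6.28 and 6.28 in LNCaP against 6.01 and 5.99 in PC3. Centring each array on its median gave 3323 probe sets higher (26.5%) and 3852 lower (30.7%), and at 2-fold 1547 (12.3%) and 1421 (11.3%), with 1038 genes higher (12.6%) and 1010 lower (12.3%). The median difference over genes was 0.20 as deposited and -0.08 after centring. It was 0.05 over the 2246 genes with a mean of at least log2 8 and 0.31 over genes under log2 5, where a value depends most on the background of the array. The share of probe sets under log2 5 was 32.7% and 33.0% in LNCaP against 36.6% and 37.0% in PC3. The 3' minus 5' difference of the GAPDH control probe sets, which grows as RNA degrades, was 0.57 and 0.55 in LNCaP against 0.07 and -0.02 in PC3, and for ACTB 0.58 and 0.67 against 0.32 and 0.43. These 3' minus 5' differences thus moved with the line, and any part of RNA integrity in the differences between the lines was not tested.

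**Figure D1:**
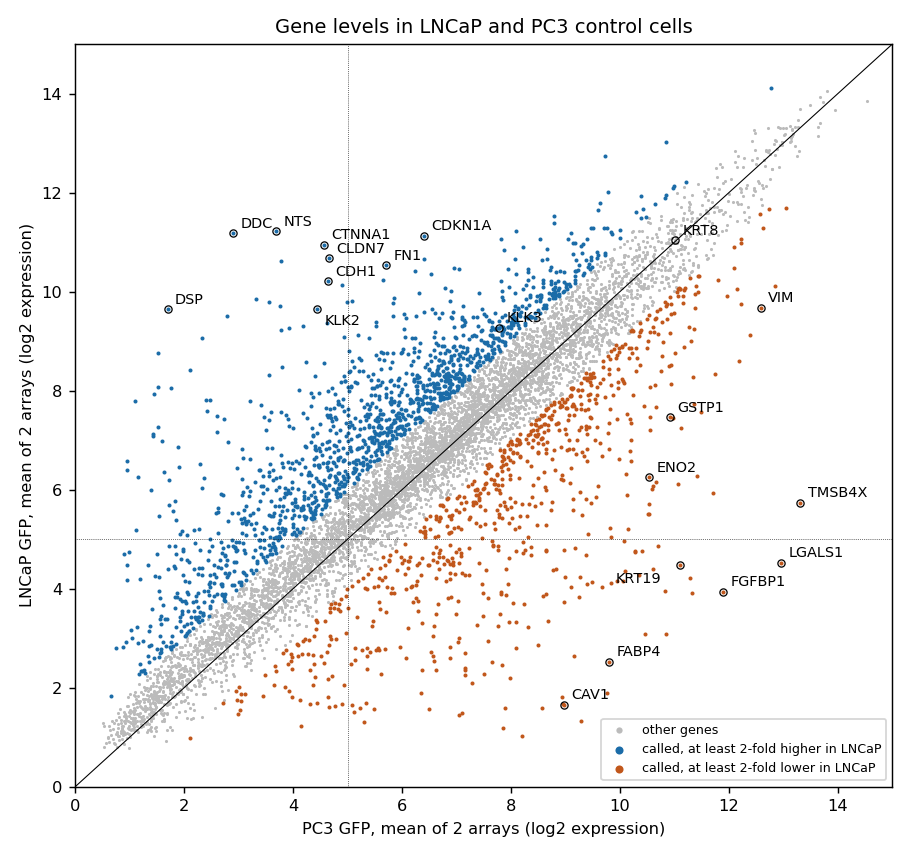
Mean log2 expression of each gene on the 2 PC3 GFP arrays (horizontal axis) and the 2 LNCaP GFP arrays (vertical axis), with genes called and at least 2-fold apart in colour, dotted lines at log2 5 and Y-linked genes left out. KRT8 lies on the diagonal, while CTNNA1, CDH1 and DSP lie far above it and LGALS1, TMSB4X and CAV1 far below.

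Most of the luminal genes measured were higher in LNCaP than in PC3. Of 22 measured androgen receptor and luminal prostate genes, 12 were called and at least 2-fold higher in LNCaP (54.5%) and 1 was lower (4.55%), and the median difference of the list was 1.33 (1.05 after centring). KLK2 and KLK3 encode the kallikreins hK2 and prostate-specific antigen and are neighbouring genes on chromosome 19. Because both are classic direct targets of the androgen receptor, the 200 bases before their RefSeq start sites (GRCh38.p14, plus strand) are shown, for KLK2 at chr19:50873239-50873438 and for KLK3 at chr19:50854715-50854914. Capitals mark a match to a relaxed androgen response element, GNACA and NGTNC with NNN between them, which was searched on both strands.
KLK2: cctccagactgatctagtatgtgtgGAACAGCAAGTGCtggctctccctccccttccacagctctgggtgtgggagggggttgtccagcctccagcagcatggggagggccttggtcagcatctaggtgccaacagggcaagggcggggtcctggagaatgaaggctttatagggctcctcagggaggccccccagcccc
KLK3: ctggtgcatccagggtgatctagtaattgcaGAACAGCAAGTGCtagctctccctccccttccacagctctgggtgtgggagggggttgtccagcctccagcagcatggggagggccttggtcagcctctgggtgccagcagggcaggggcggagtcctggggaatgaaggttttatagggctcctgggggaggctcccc
Relative to the start site the match begins at position -175 in KLK2 and -169 in KLK3. It was found in the 250 bases upstream of 2 of the 14 measured luminal genes with a RefSeq promoter (14.3%), and in 98 of 6618 measured genes (1.48%) and 480 of 27305 promoters in all (1.76%). Those 2 luminal genes are KLK2 and KLK3 themselves, paralogues with the same marked bases that were shown because they are known targets. The 14.3% therefore gives no share for luminal genes in general, as the others searched had no match. Neither a match nor its absence says whether the factor binds there.

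KLK2 read 9.77 and 9.52 on the LNCaP arrays and 4.76 and 4.13 on the PC3 arrays, a difference of 5.20 (SE 0.20, adjusted p = 4.22e-09), and its other probe set gave 4.79. KLK3 read 9.38 and 9.16 against 7.93 and 7.63, a difference of 1.49 (SE 0.15, adjusted p = 7.44e-06). Its 6 probe sets did not give a common size: 5 were called, up to 2.56, and the sixth stood at 0.09. The kallikreins are close paralogues whose probes can share signal, so the split between them is uncertain. TMPRSS2, a membrane serine protease induced by androgen, read 9.08 and 9.18 against 5.29 and 5.09, which is 15.4-fold. ACP3, prostatic acid phosphatase, read 7.71 and 7.92 against 2.43 and 2.50. In all of these genes both LNCaP arrays lay above both PC3 arrays.

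PLPP1, an androgen-induced lipid phosphatase, was higher by 5.22, the transporter ABCC4 by 3.71, the zinc finger repressor ZBTB16 by 2.75 and the serine protease hepsin (HPN) by 2.50. FOXA1, the pioneer factor that opens chromatin for the androgen receptor, read 9.81 and 10.15 against 7.21 and 7.60 (2.57 higher). STEAP1, a membrane protein of the prostate, was abundant in both lines, at 9.82 and 9.73 in PC3 and on average 2.23 higher in LNCaP. HOXB13, the homeobox gene of the prostate, was also high in both, at a mean of 10.2 in LNCaP and 9.79 in PC3. The androgen-responsive immunophilin gene FKBP5 was higher by 1.17. NDRG1, which androgen and hypoxia both induce, was the 1 member at least 2-fold lower, at 7.19 and 7.30 in LNCaP against 11.05 and 11.18 in PC3.

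Steroid handling differed at a few genes. Of 31 measured steroid enzymes 5 were called and at least 2-fold higher in LNCaP, 3 were lower and the median was 0.17, near that of all genes. UGT2B17 and UGT2B15 encode the enzymes that glucuronidate androgens for removal. UGT2B17 read 7.82 and 7.80 against 2.29 and 2.50, and UGT2B15 was higher by 2.34, with its other probe set at 6.34; these paralogues are nearly identical and their probes may share signal. HSD17B4, the peroxisomal 17-beta-hydroxysteroid dehydrogenase, was higher by 2.96 and HSD11B2, which inactivates cortisol, by 2.41. PC3 was higher in HSD17B2 (difference -2.25), which oxidises testosterone, and in AKR1C3 (-1.57), which makes it. NR3C1, the glucocorticoid receptor, was lower in LNCaP at 4.57 and 4.55 against 5.61 and 5.90 (difference -1.19, adjusted p = 4.79e-05), all 4 values near the range of background.

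**Figure D2:**
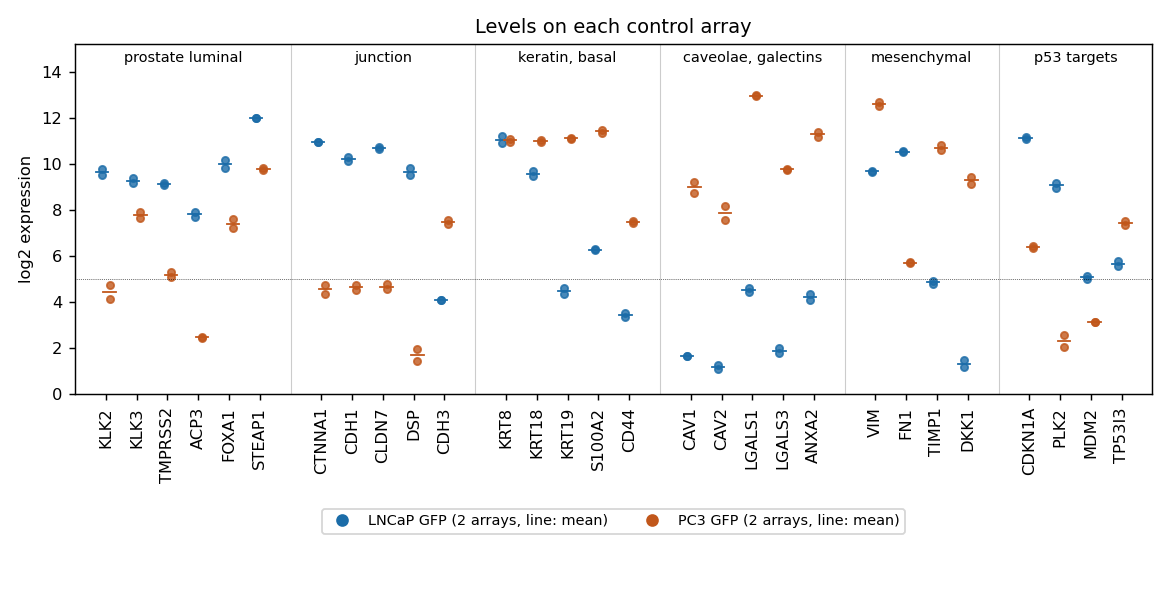
Log2 expression on each control array for chosen genes, with 1 point per array, a line at each group mean and a dotted line at log2 5. The lines overlap at KRT8, and for the other 28 genes both arrays of 1 line lie above both arrays of the other.

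Many cell junction genes were higher in LNCaP. Of 31 measured junction and polarity genes 13 were called and at least 2-fold higher in LNCaP (41.9%) and 2 were lower (6.45%), with a median of 0.73 (0.45 centred, 10 higher and 4 lower). CTNNA1, the alpha-catenin that couples cadherins to actin, read 10.95 and 10.95 in LNCaP against 4.76 and 4.37 in PC3, a difference of 6.38 (SE 0.16, adjusted p = 1.65e-10). All 6 of its probe sets were called higher, by 3.13 to 6.38, and on all 6 the PC3 mean lay under log2 5. PC3 is known as a line without alpha-catenin. CDH1, or E-cadherin, read 10.11 and 10.30 against 4.55 and 4.74, while its dimmer probe set differed by 0.66. CLDN7, a tight junction claudin, read 10.71 and 10.65 against 4.77 and 4.56, and DSP, the plaque protein of desmosomes, 9.50 and 9.80 against 1.96 and 1.44.

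Occludin (OCLN) was higher in LNCaP by 3.37, plakoglobin (JUP) by 2.40, the matriptase inhibitor SPINT1 by 2.16 and the claudins CLDN8 and CLDN3 by 2.93 and 1.77. CTNNB1, beta-catenin, was higher by 1.03 (0.75 centred). PC3 was higher in P-cadherin (CDH3), the basal cadherin, at 7.54 and 7.41 against 4.10 and 4.10, and in the plakophilin PKP1 (-1.51). CLDN4 and EPCAM, which mark epithelium in general, were present in both lines and higher in PC3 by less than 2-fold as deposited (differences -0.80 and -0.59). After centring these differences were -1.08 and -0.87, so CLDN4 then passed 2-fold.

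Of 5 measured keratins of simple epithelium 3 were called and at least 2-fold lower in LNCaP and none was higher, with a median of -1.03. KRT8, which was not called, read 11.20 and 10.89 in LNCaP and 11.08 and 10.95 in PC3, a difference of 0.03 (SE 0.15, adjusted p = 0.878). KRT18 was high in both lines and 2.67-fold higher in PC3, and KRT19 read 4.61 and 4.35 in LNCaP against 11.13 and 11.09 in PC3. The third lay under log2 5 in both lines. Of 20 measured basal epithelial genes 10 were called and at least 2-fold lower in LNCaP and 1 was higher, with a median of -0.89. S100A2, a calcium-binding protein of basal cells, read 6.26 and 6.30 against 11.33 and 11.48, and SFN, the epithelial 14-3-3 sigma, was lower by 3.27. Integrin subunits of the hemidesmosome and of laminin binding followed, with ITGB4 at -2.77, ITGA6 at -2.46 and ITGA3 at -2.08, although 1 of the 4 ITGA6 probe sets stood at -0.09. The basal keratins proper were not at least 2-fold apart: KRT5 read 4.32 and KRT14 5.98 in PC3, against 4.54 and 6.42 in LNCaP.

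CD44, the hyaluronan receptor, read 3.36 and 3.52 in LNCaP against 7.54 and 7.43 in PC3 (difference -4.04). Its 7 probe sets ranged from -5.68 to -0.01, and the 3 that were not called had means under log2 5 in both lines.

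Mesenchymal and contractile genes were mixed. Of 41 measured, 16 were called and at least 2-fold lower in LNCaP (39.0%) and 5 were higher (12.2%), the latter 3 after centring. VIM, the intermediate filament vimentin, was abundant in both lines, at 9.65 and 9.70 in LNCaP against 12.50 and 12.68 in PC3. DKK1, a secreted inhibitor of WNT receptors that is studied in bone metastasis, read on average 1.32 in LNCaP and 9.28 in PC3. CDH11 and CDH2, the mesenchymal cadherins, differed by -5.37 and -2.40, CCN2 by -5.59 and the E-cadherin repressor ZEB1 by -2.63, from a PC3 mean of only 4.31. Against this direction, fibronectin (FN1) read 10.53 and 10.54 in LNCaP and 5.73 and 5.68 in PC3, with all 3 probe sets between 4.20 and 5.67, and ACTA2 and CALD1, smooth muscle actin and its partner caldesmon, were higher in LNCaP by 3.30 and 3.09.

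Membrane scaffold genes were on the PC3 side. Of 33 measured caveolins, annexins, S100 proteins and galectins, 14 were called and at least 2-fold lower in LNCaP (42.4%) and 1 was higher, LGALS8 by 2.14. LGALS1, the secreted lectin galectin-1, had the largest called difference among the genes lower in LNCaP when values under log2 5 were raised to 5. It read 4.61 and 4.45 against 12.93 and 12.98, which is 248-fold on that floored scale (adjusted p = 1.12e-11). LGALS3 read 2.02 and 1.77 against 9.72 and 9.79. CAV1 and CAV2, which form the coat of caveolae, read 1.64 and 1.66, and 1.11 and 1.27, in LNCaP against 8.73 and 9.23, and 7.56 and 8.15, in PC3, although the second CAV2 probe set was under log2 5 in both lines. ANXA2 and S100A10, which form 1 complex at the membrane, differed by -7.06 and -4.94, and ANXA1, ANXA3 and ANXA10 by -5.53, -6.30 and -5.35. For each of these genes both PC3 arrays lay above both LNCaP arrays.

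Proteases, matrix and their inhibitors followed in part. In the list of the urokinase system, metalloproteinases and cathepsins 12 of 41 genes were called and at least 2-fold lower in LNCaP and 8 higher (14 and 4 after centring). PLAU, the urokinase, read 4.17 and 3.90 against 9.59 and 9.74, and the tissue plasminogen activator PLAT (-5.10), the urokinase receptor PLAUR (-1.66), the inhibitor SERPINE2 (-2.61) and the metalloproteinase inhibitor TIMP1 (-5.84) were on the same side. LNCaP was higher in cathepsin H (CTSH, 3.24) and in the membrane proteases ADAM9 (3.36) and ADAM8 (2.88). Of 55 collagens, laminins and integrins 13 were lower and 8 higher (15 and 5 after centring). The laminin chain LAMB1 differed by -6.97, tenascin C (TNC) by -5.78 and COL4A1 by -3.52, while COL4A5 (2.39) and the integrin ITGA1 (2.19) were higher in LNCaP. LAMB1, TNC and COL4A1 lay under log2 5 on both LNCaP GFP arrays, so the sizes of their differences are uncertain.

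**Figure D3:**
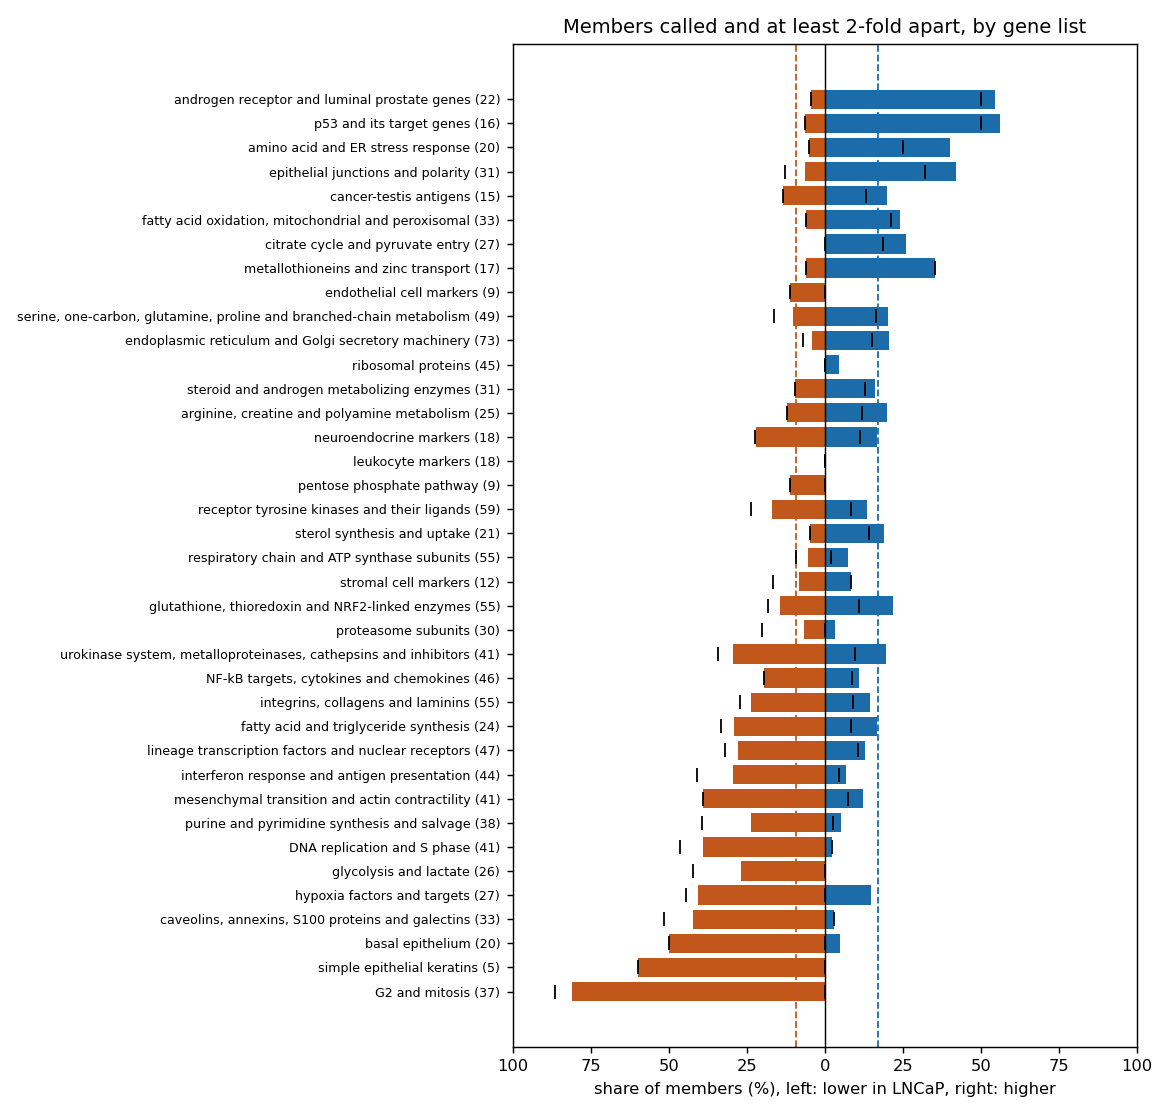
Share of the measured members of each gene list with at least 5 measured (number in brackets) that were called and at least 2-fold higher (blue, right) or lower (orange, left) in LNCaP, ordered by the median difference. Dashed lines give the same share over all genes, 17.2% and 9.14%, and short black marks the share after centring each array; the luminal and p53 lists reach furthest to the right and the mitosis list, at 81.1%, to the left.

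Several of the largest differences lay outside these families. NTS, the peptide neurotensin, read 11.17 and 11.26 in LNCaP against 3.38 and 3.99 in PC3. DDC, which decarboxylates DOPA and binds the androgen receptor, read 11.15 and 11.20 against 2.83 and 2.98 (difference 8.27, SE 0.11, adjusted p = 1.12e-11). BASP1 (6.84), the guidance factor SEMA3C (6.53), the guanylate cyclase subunit GUCY1A1 (6.23), the transcription factor subunit TAF7 (5.96), myoglobin (MB, 4.80) and the kinase PRKD1 (4.74) completed the genes highest in LNCaP, beside a Y-linked gene whose values are not given.

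On the PC3 side, TMSB4X, thymosin beta-4, which sequesters actin, read 5.72 and 5.76 in LNCaP against 13.30 and 13.32 in PC3, 191-fold. FGFBP1, a carrier that releases fibroblast growth factors, read 3.95 and 3.94 against 11.81 and 11.98. The trypsinogen PRSS3 differed by -7.39, the complement inhibitor CD55 by -7.77, the membrane repair protein MYOF by -6.87, the protease HTRA1 by -5.65, the binding proteins IGFBP6 and IGFBP4 by -6.21 and -6.08 and the membrane protein EMP3 by -5.52. UCHL1, a neuronal ubiquitin hydrolase, read 5.93 and 5.94 against 11.67 and 11.73.

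Neuroendocrine markers therefore pointed both ways. Of 18 measured, 3 were called and at least 2-fold higher in LNCaP, NTS, DDC and SYP (1.15), and 4 lower, UCHL1, the neuron-specific enolase ENO2 (-4.29), SCG5 (-1.59) and SYT1 (-1.35), the last pair under log2 5 in both lines. None of 18 leukocyte markers was at least 2-fold apart, their differences ran from -0.41 to 0.79, and 8 lay under log2 5 in both lines. Of 9 endothelial markers 1 was called and at least 2-fold lower, KDR, also under log2 5 in both. Of 12 stromal markers lumican (LUM) was higher in LNCaP, at 6.36 and 6.42 against 1.02 and 0.88, and COL1A2 lower by 3.91.

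Lineage transcription factors were called lower in LNCaP more often than higher. Of 47 measured, 13 were called and at least 2-fold lower (27.7%) and 6 higher (12.8%). GATA2, which works with the androgen receptor, read 10.10 and 9.94 against 7.12 and 6.68, and its 4 probe sets ran from 2.01 to 7.40. TFAP2C, a factor of the AP-2 family, read 7.37 and 7.56 against 3.56 and 3.37. It was followed by the helix-loop-helix inhibitor ID3 (3.65) and the ETS factor ETV1 (2.56 on 1 probe set and 3.15 on the other). PC3 was higher in PPARG, the adipocyte nuclear receptor, at 7.99 and 8.49 against 3.61 and 3.78, and in the ETS factors ETV5 (-4.05) and ETV4 (-1.50), NR2F1 (-2.66) and the basal factor KLF5 (-2.58). The homeobox gene MEIS2 read 2.39 and 2.34 against 6.34 and 6.39. LNCaP thus held the higher level of ETV1 and PC3 that of ETV4 and ETV5, 3 members of 1 ETS subfamily.

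Growth factor genes showed a comparable exchange. Among 59 receptor tyrosine kinases and ligands, 8 were called and at least 2-fold higher in LNCaP and 10 lower, shares near those of all genes on the LNCaP side (13.6% against 17.2%) and above them on the PC3 side (16.9% against 9.14%), and after centring 5 were higher and 14 lower. ERBB2 was higher in LNCaP by 1.80, and the ephrin ligands EFNB2 (3.99) and EFNA5 (2.66) were higher too. ERBB3 was not called by its brightest probe set (0.34), whereas its 7 probe sets ran from 0.15 to 5.46. VEGFC (-4.31), betacellulin (BTC, -3.43, with a PC3 mean of 5.08), the receptor EPHA2 (-2.53) and the hepatocyte growth factor receptor MET (-1.72) were higher in PC3.

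Interferon and antigen presentation genes were lower in LNCaP at 13 of 44 (29.5%) and higher at 3 (6.82%), with a median of -0.37. IFI16, a nuclear DNA sensor, read 1.82 and 1.16 in LNCaP against 6.99 and 7.21 in PC3. ISG20 (-2.68), PLSCR1 (-2.62), OAS1 (-2.45), IFIT1 (-2.28) and ISG15 (-2.11) were on the same side, as was B2M, the light chain of class I molecules, at -1.37 from levels above log2 11 in both lines. The kinase JAK1 differed by -1.38 and JAK2, under log2 5 in both lines, by 1.96. Among 46 cytokine and NF-kB target genes the receptor genes went opposite ways. IL13RA2, a decoy receptor for interleukin 13, read 3.01 and 3.18 in LNCaP against 10.36 and 10.56 in PC3, and IL1R1, the interleukin 1 receptor, 6.98 and 6.98 against 1.60 and 1.58.

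Most genes of the p53 target list were higher in LNCaP. Of 16 measured, 9 were called and at least 2-fold higher (56.2%) and 1 lower (6.25%), with a median of 1.30. CDKN1A, the cyclin-dependent kinase inhibitor p21, read 11.09 and 11.17 in LNCaP against 6.45 and 6.36 in PC3 (26.4-fold, adjusted p = 3.02e-10). PLK2 read 8.97 and 9.17 against 2.59 and 2.07. GDF15, a stress cytokine, was among the brightest genes of LNCaP, at 13.07 and 12.99 against 10.96 and 10.72. MDM2, the ubiquitin ligase of p53, read only 5.02 and 5.15 against 3.12 and 3.14 (1.95 higher), and its 4 probe sets were higher by 1.95 to 2.52. With values under log2 5 raised to 5, MDM2 was not called. The repair genes XPC (1.73) and DDB2 (1.47) and the death receptor TNFRSF10B (1.65) were higher as well. TP53I3, a quinone oxidoreductase, was the member of this list that was lower, at 5.78 and 5.55 against 7.33 and 7.52. The list did not hold SFN, which is given above with the basal genes (difference -3.27).

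Cell division genes gave the strongest shift of any list. Of 37 measured G2 and mitosis genes 30 were called and at least 2-fold lower in LNCaP (81.1%), none was at least 2-fold higher, and the median was -1.91 (-2.19 centred, with 32 lower). In a culture, fewer dividing cells and less RNA per dividing cell cannot be told apart. Some promoters of this group carry the cell cycle homology element TTTGAA, through which such genes can be held down outside G2. The last 60 bases before the start sites of 8 members with a match are shown. Capitals mark the match on either strand.
CKS1B: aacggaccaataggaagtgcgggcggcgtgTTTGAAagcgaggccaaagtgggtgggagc
CKS2: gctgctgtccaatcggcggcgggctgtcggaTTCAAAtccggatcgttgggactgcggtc
CCNB2: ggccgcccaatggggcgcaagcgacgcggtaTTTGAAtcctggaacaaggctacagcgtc
ZWINT: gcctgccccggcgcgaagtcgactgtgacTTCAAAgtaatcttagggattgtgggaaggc
ESPL1: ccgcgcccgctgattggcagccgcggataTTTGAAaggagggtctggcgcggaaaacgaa
KIF11: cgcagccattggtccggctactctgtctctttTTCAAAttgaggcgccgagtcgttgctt
BUB1B: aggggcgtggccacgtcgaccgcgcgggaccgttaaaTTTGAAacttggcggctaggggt
PLK1: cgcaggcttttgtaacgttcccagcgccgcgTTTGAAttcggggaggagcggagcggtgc
By RefSeq on GRCh38.p14 these stretches lie at chr1:154974621-154974680 for CKS1B, chr9:89311135-89311194 for CKS2, chr15:59105086-59105145 for CCNB2, chr10:56361260-56361319 on the minus strand for ZWINT, chr12:53268239-53268298 for ESPL1, chr10:92593070-92593129 for KIF11, chr15:40161009-40161068 for BUB1B and chr16:23678829-23678888 for PLK1. Within these 60 bases the motif occurred in 10 of 30 mitosis promoters (33.3%) and in 106 of 6618 measured genes (1.60%). Over 250 bases it occurred in 13 of 30 (43.3%) and in 9.90% of measured genes. The window of 60 bases was chosen after the positions were seen.

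CKS1B, a subunit of cyclin-dependent kinases, read 8.39 and 8.27 in LNCaP against 11.46 and 12.03 in PC3 (difference -3.42, SE 0.17, adjusted p = 2.63e-08). CDK1, the mitotic kinase, read 7.45 and 7.39 against 10.11 and 10.24, and UBE2C, which tags cyclin B for destruction, 8.35 and 8.20 against 11.45 and 11.24. AURKB (-2.80), CCNA2 (-2.76), FOXM1 (-2.47), ZWINT (-2.41), CCNB2 (-2.34), ESPL1 (-2.24), CKS2 (-1.96) and BUB1B (-1.82) were on the same side, and PLK1 was lower by less than 2-fold (-0.73). Of 41 replication genes 16 were called and at least 2-fold lower (39.0%), among them thymidine kinase (TK1) at 7.29 and 7.41 against 10.19 and 10.22, POLE2 (-2.66), TOP2A (-2.17) and CDC45 (-1.90). CCNE1, cyclin E, was the 1 member at least 2-fold higher in LNCaP, at 8.46 and 8.33 against 5.15 and 4.95.

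The division genes did not keep this difference on the Notch1 arrays. The median level of the 37 mitosis genes was 6.78 and 6.80 on the LNCaP GFP arrays, 8.36 and 8.77 on the PC3 GFP arrays, 8.41 and 8.28 on the LNCaP Notch1 arrays and 8.67 and 8.62 on the PC3 Notch1 arrays. The LNCaP GFP arrays were therefore the low group, and the LNCaP Notch1 arrays lay near both PC3 groups. The median line difference was -0.41 with Notch1, and in limma's interaction test 32 of the 37 genes had a called change of the line difference towards LNCaP, where 6.49% of all probe sets did (21 of 37 when values under log2 5 were raised to 5, and 26 to 32 under the other alternatives). For replication genes the median went from -0.51 to 0.11, with 20 of 41 called that way. Ribosomal protein genes, with 45 measured, had medians of 0.18 and 0.19 and no called change of the line difference at an adjusted p under 0.05. The GAPDH 3' minus 5' difference was 0.57 and 0.55 on the LNCaP GFP arrays against 0.40 and 0.36 on the LNCaP Notch1 arrays. For ACTB it was 0.58 and 0.67 against 0.38 and 0.52, and any part of RNA integrity in the change between conditions was not tested.

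**Figure D4:**
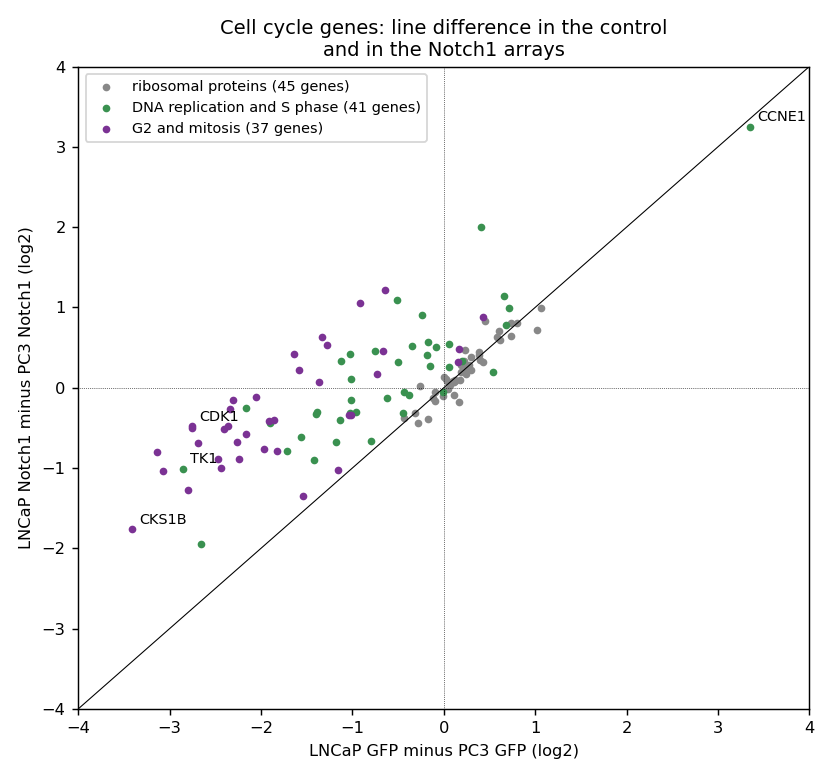
Difference between the lines (log2, LNCaP minus PC3) for cell cycle and ribosomal protein genes, on the GFP arrays (horizontal axis) and on the Notch1 arrays (vertical axis), 1 point per gene, with the line of equal difference. Mitosis genes lie above the line, from a median of -1.91 with GFP to -0.41 with Notch1, while CCNE1 and the ribosomal genes lie along it.

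Most other differences recurred on the Notch1 arrays, which entered the comparison of control cells through the shared estimate of spread and through the choice of the brightest probe set of each gene. Of the 2108 probe sets that were at least 2-fold higher in LNCaP GFP, 1604 were called and at least 2-fold higher in LNCaP Notch1 as well, and of the 1057 lower 797 were lower again. On those arrays 17.4% of all probe sets were called and at least 2-fold higher and 8.82% lower. The differences of CTNNA1 (6.38 and 6.45), TMSB4X (-7.57 and -7.57), KRT19 (-6.63 and -6.95), VIM (-2.92 and -2.76) and GSTP1 (-3.46 and -3.37) were much the same in both pairs of groups, first with GFP and then with Notch1. The interaction was called for 1778 probe sets (14.2%), and 876 of them were among the 2-fold differences of the control cells. That number leaned on single arrays and on the replicate numbers: 815 probe sets were called towards LNCaP and 963 towards PC3 (7.67%), against 1445 and 1434 with the replicate number as a block, 470 and 613 without LNCaP GFP replicate 2, 1348 and 1316 without PC3 GFP replicate 2, and 400 to 495 and 550 to 666 without a Notch1 array of either line.

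Among metabolic genes, glycolytic genes were more often higher in PC3, while the citrate cycle and fatty acid oxidation lists stood only a few genes above the background on the LNCaP side. Of 26 glycolytic genes 7 were called and at least 2-fold lower in LNCaP (26.9%) and none higher, with a median of -0.62 (-0.90 centred, 11 lower). ENO2 read 6.30 and 6.20 against 10.52 and 10.55. The hexokinase HK2 (-2.05), PDK1 (-2.15), a kinase that inhibits pyruvate dehydrogenase, and the phosphofructokinase PFKP (-1.38) were lower. So were the enolase ENO1 (-1.08) and the pyruvate kinase PKM (-1.01). Lactate dehydrogenase LDHA read 11.39 and 11.61 against 12.31 and 12.41, a called difference under 2-fold. Hypoxia targets lay the same way in 11 of 27 (40.7%), with 4 higher, none of which was at least 2-fold higher after centring. The collagen hydroxylase PLOD2 (-5.62) and adrenomedullin (ADM, -4.74) led them, and VEGFA was higher in LNCaP by 1.02, which centring took to 0.74.

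Of 27 citrate cycle and pyruvate entry genes 7 were called and at least 2-fold higher in LNCaP (25.9%, against 17.2% of all genes), none was lower, and the median was 0.50 (0.22 centred, 5 higher). IDH1, the cytosolic isocitrate dehydrogenase, read 10.57 and 10.74 against 8.54 and 8.77, and malic enzyme ME2 (1.70), PDHX (1.59) and DLAT (1.51), both of the pyruvate dehydrogenase complex, and PCK2 (1.37) were higher. Of 55 respiratory chain and ATP synthase subunits 4 were at least 2-fold higher (7.27%) and 3 lower (5.45%), both under the shares of all genes, with a median of 0.04 (1 and 5 after centring). Of 9 pentose phosphate genes transketolase (TKT) was lower by 1.16, and no other was at least 2-fold apart.

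Fatty acid oxidation was higher in LNCaP at 8 of 33 genes (24.2%, against 17.2% of all genes) and lower at 2 (6.06%), with a median of 0.61 (0.33 centred, 7 higher). After HSD17B4 came ACADSB (2.39), BDH1 (1.95), HADH (1.80) and ETFDH (1.79), while ACOX2, the peroxisomal oxidase of branched substrates, read 2.31 and 2.39 in LNCaP against 7.18 and 7.12 in PC3. Fatty acid synthesis and storage was mixed, with 7 of 24 genes lower in LNCaP (29.2%) and 4 higher (16.7%), a median of -0.15, and 8 lower and 2 higher after centring. The lipid chaperones FABP4 and FABP5 read 2.65 and 2.40, and 1.73 and 1.88, in LNCaP against 9.76 and 9.84, and 8.75 and 9.11, in PC3, and the triglyceride enzyme DGAT1 differed by -2.41. ACSL1, which activates long-chain fatty acids, read 8.48 and 8.75 against 5.47 and 5.87, and the elongase ELOVL5 was higher by 1.82. FASN, the fatty acid synthase, was similar, at 10.06 and 9.97 against 9.59 and 9.51, called at 0.46 (adjusted p = 0.00726) but not after centring (0.18). In sterol synthesis TM7SF2 was higher by 3.14, GGPS1 by 1.96 and MSMO1 by 1.82, against NPC1, which exports cholesterol from lysosomes, at -1.79.

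**Figure D5:**
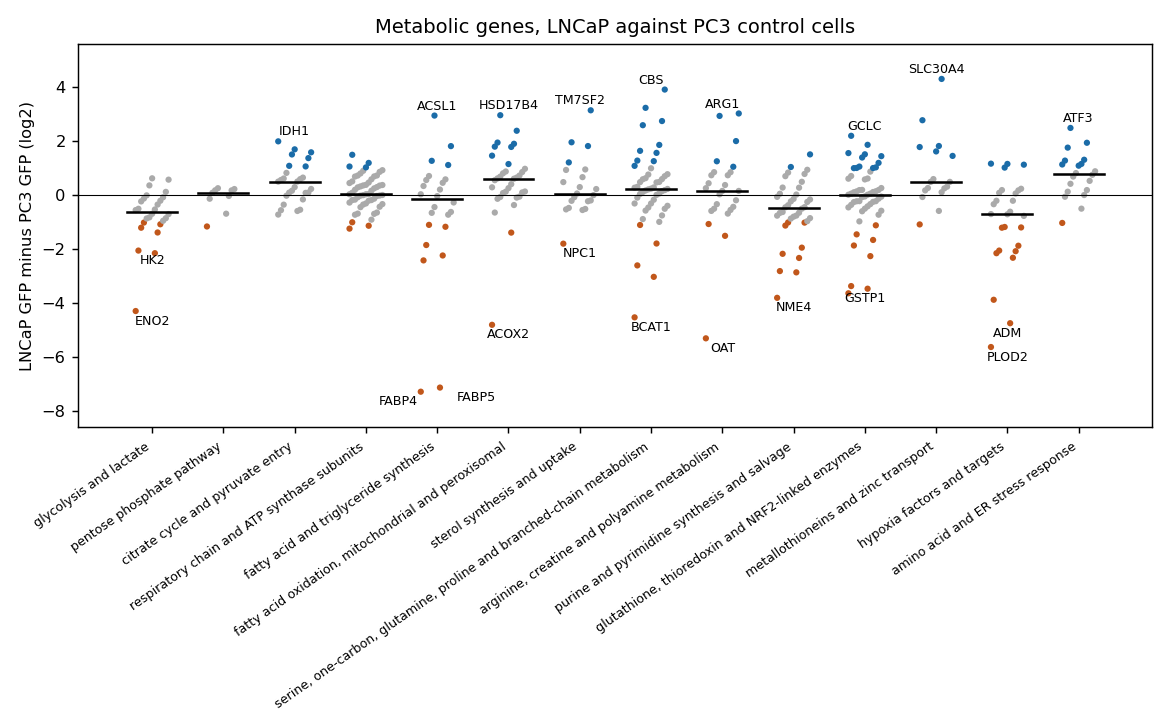
Difference between the lines (log2, LNCaP minus PC3) for each measured member of 14 metabolic and stress lists, with a bar at the list median. Blue and orange points were called and at least 2-fold apart, and grey points include called differences under 2-fold; glycolysis, nucleotide and hypoxia genes lie mostly under 0 and citrate cycle and fatty acid oxidation genes mostly above it.

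In amino acid and one-carbon metabolism 10 of 49 genes were called and at least 2-fold higher in LNCaP and 5 lower (8 and 8 after centring). CBS, which commits homocysteine to cysteine, read 7.95 and 8.07 against 4.10 and 4.10. The cobalamin enzymes MMUT (3.24) and MTR (2.75) were higher, whereas the branched-chain transaminase BCAT1 (-4.52), the glutamate transporter SLC1A3 (-3.02) and NNMT (-2.60) were higher in PC3. OAT, ornithine aminotransferase, read 4.08 and 4.11 against 9.25 and 9.54, and the polyamine enzyme AMD1 was higher in LNCaP by 2.00, with all 4 probe sets between 2.00 and 2.90. Purine and pyrimidine genes were lower in LNCaP at 9 of 38 (23.7%) and higher at 2 (15 and 1 after centring), led by NME4 (-3.80), TK1 and uridine phosphorylase UPP1 (-2.81).

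Antioxidant enzymes were split, with 12 of 55 at least 2-fold higher in LNCaP (21.8%) and 8 lower (14.5%), which centring turned to 6 higher and 10 lower. GSTP1, the glutathione transferase that is silenced in most prostate cancers, read 7.50 and 7.43 in LNCaP against 10.96 and 10.89 in PC3 (difference -3.46), and both its probe sets were called. The aldehyde dehydrogenases ALDH1A3 (-3.63) and ALDH1A2 (-3.36) and the quinone reductase NQO1 (-1.86) were lower too. GCLC, which makes the first bond of glutathione, read 8.66 and 8.77 against 6.38 and 6.65. Among zinc and metallothionein genes 6 of 17 were higher (35.3%) and 1 lower: the zinc exporter SLC30A4 read 7.64 and 7.80 against 3.46 and 3.36, and SLC39A6 (2.78), MT1X (1.82) and the metal sensor MTF1 (1.78) followed.

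The secretory pathway was higher in LNCaP at 15 of 73 genes (20.5%) and lower at 3 (4.11%), a share near the 17.2% of all genes (11 and 5 after centring). Amino acid and endoplasmic reticulum stress genes stood further out, at 8 of 20 higher (40.0%) and 1 lower, with a median of 0.79. ATF3, a stress-induced transcription factor, had a mean of 6.89 against 4.37 and 4.43 (difference 2.49), and HERPUD1 (1.94), the alanyl-tRNA synthetase AARS1 (1.76), asparagine synthetase (ASNS, 1.28) and ATF4 (1.09) were higher. After centring 5 of the 20 were at least 2-fold higher, and on the Notch1 arrays the median was -0.09, with 12 of 20 genes called in the interaction test. Of 30 proteasome subunits 1 was at least 2-fold higher and 2 lower (0 and 6 after centring), and of 15 cancer-testis antigens 3, led by PRAME (2.01), were higher and 2, led by MAGEA11 (-2.42), lower.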

How the data were processed

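RNA of LNCaP and PC3 cells expressing GFP or activated Notch1 was measured on Affymetrix U95Av2 arrays, 2 per group. The authors summarised the raw arrays with RMA in R and deposited log2 values for single arrays, without pooling. The submitters' processing notes name RMA and limma without versions, and whether both lines were normalized together is not given in the sources used here. No file gives a detection call, so values under log2 5 are read only as low. The size of a difference from such a value is uncertain, for example for CDH11, CCN2, ANXA3 and VEGFC, which were low in LNCaP. Precision is limited by having 2 arrays in a group.

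Of 12625 probe sets, 67 Affymetrix controls were left out. The platform annotation gave 10943 of the rest 1 symbol, 545 several and 1070 none, and only the first were named. Groups and replicate numbers came from the sample titles. limma 3.58.1 (R 4.3.3) was fitted with lmFit and eBayes to all 8 arrays (4 residual and 6.37 prior degrees of freedom), and tests were two-sided. The fit was tested on simulated data. RefSeq promoters (GRCh38.p14) were searched upstream of the start site alone.

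Earlier results of these data were known when the comparison, the 39 gene lists and the naming rule were chosen. The rule named the 15 genes with the largest difference each way, on values raised to at least log2 5, among called genes whose arrays did not overlap. It also named 16 fixed genes, 5 of which were not analysed here, and up to 5 called members each way of every list, with members needed to describe its roles. Alternatives were centring, quantile normalization, the floor at log2 5, a filter at the 25th percentile of mean level, the 4 GFP arrays alone, the replicate number as a block, leaving out each array, and gene means. Replicate 1 arrays deviated from their group means together, with correlations from 0.124 to 0.545 between every pair of groups, above the 0.1 taken as pairing. No label or method describes what a replicate number stands for. The number was left out of the model, and blocked values are printed where they altered a call or shifted a count more than 1.5 times.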

Additional observations from a re-analysis of the deposited data

Results flagged for a closer look

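The difference between LNCaP and PC3 was not the same on the GFP and the Notch1 arrays for 98 of the 213 genes named above, by limma's interaction test at a Benjamini-Hochberg adjusted p under 0.05 over all probe sets. The difference was smaller in size with Notch1 for 81 of the 98, larger for 17, and its sign turned for 5. With the replicate number as a block 109 of the 213 were called, all 98 among them, and without 1 array 72 to 104, of which 72 to 92 were among the 98. With values under log2 5 raised to 5 there were 83, with 74 of the 98. Every value below is the line difference with Notch1 minus the line difference with GFP, in log2, so that a positive value is a move towards LNCaP. Genes were named in part for a large difference on the GFP arrays, so the count of smaller differences is no sign of a direction. Of all probe sets 14.2% passed the same test.

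Cell division and replication genes, all lower in LNCaP GFP, moved towards LNCaP at AURKB (1.52), BUB1B (1.03), CCNA2 (2.26), CCNB2 (2.08), CDC45 (1.45), CDK1 (2.28), CKS1B (1.65), CKS2 (1.20), ESPL1 (1.36), FOXM1 (1.59), KIF11 (1.43), PLK1 (0.90), POLE2 (0.71), TK1 (1.85), TOP2A (1.91), UBE2C (2.03) and ZWINT (1.89). In this group PLK1 alone turned its sign, to 0.17 with Notch1. Genes of the luminal program and of steroid handling moved towards LNCaP at HSD17B2 (0.74) and NR3C1 (1.42) and towards PC3 at ABCC4 (-1.33), ACP3 (-1.58), HPN (-0.74), KLK2 (-1.37), PLPP1 (-1.38), STEAP1 (-0.89), TMPRSS2 (-0.72), HSD11B2 (-1.32), HSD17B4 (-1.22), UGT2B15 (-1.14) and UGT2B17 (-1.96). All of these that moved towards PC3 stayed at least 2-fold higher in LNCaP on the Notch1 arrays, from 1.09 for HSD11B2 to 3.84 for PLPP1. NR3C1 turned its sign. Junction, basal and other epithelial genes moved towards LNCaP at CLDN8 (1.86), DSP (0.99), KLF5 (0.81), ITGB4 (1.77) and SFN (1.11) and towards PC3 at CDH1 (-0.59), CLDN3 (-0.70), CLDN7 (-1.19), EPCAM (-0.69), S100A2 (-0.96) and CD44 (-0.92).

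Mesenchymal, matrix and protease genes moved towards LNCaP at ACTA2 (1.53), DKK1 (0.92), EMP3 (0.54), FN1 (1.81), IGFBP4 (1.29), PLAT (1.09), SERPINE2 (1.29) and ITGA1 (1.12) and towards PC3 at CALD1 (-1.26), CCN2 (-0.80), TIMP1 (-1.65) and COL4A5 (-1.38). Caveolin, annexin and neighbouring membrane genes with PRSS3 moved towards LNCaP at ANXA1 (3.08), ANXA10 (1.95), MYOF (0.97) and PRSS3 (1.61) and towards PC3 at CAV2 (-1.30) and LGALS3 (-1.21). ANXA1 kept a lower level in LNCaP, by 2.45 with Notch1 against 5.53 with GFP. Metabolic genes moved towards LNCaP at ACOX2 (0.54), FABP4 (1.33), OAT (2.98), PLOD2 (1.32) and TKT (0.92) and towards PC3 at ACSL1 (-1.59), AMD1 (-1.10), BDH1 (-1.08), CBS (-1.05), DLAT (-0.84), ELOVL5 (-1.11), FASN (-1.25), GCLC (-2.02), MMUT (-1.46), MSMO1 (-1.04), NPC1 (-1.34), SLC30A4 (-0.66) and TM7SF2 (-0.99). OAT moved furthest of the metabolic genes named, and FASN turned its sign. PLOD2 read 2.77 and 2.97 in LNCaP GFP and 4.59 and 4.95 in LNCaP Notch1, all values read only as low. Its PC3 values rose as well, from 8.12 and 8.86 to 9.02 and 9.12, so its positive value rested on low LNCaP values.

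Stress and p53 target genes moved towards LNCaP at DDB2 (1.12) and TP53I3 (3.56) and towards PC3 at ASNS (-1.06), ATF3 (-1.71), ATF4 (-0.69), HERPUD1 (-2.03), CDKN1A (-1.64) and PLK2 (-2.27). PLK2 rose on the LNCaP arrays too, from 8.97 and 9.17 with GFP to 9.57 and 9.69 with Notch1. Its PC3 values rose more, from 2.59 and 2.07 to 4.89 and 5.44, mostly under log2 5. HERPUD1 turned to -0.09 with Notch1. TP53I3 was lower in LNCaP by 1.76 with GFP and higher by 1.80 with Notch1. The other genes moved towards LNCaP at IFIT1 (0.75), NTS (1.33), OAS1 (0.84) and VEGFC (1.39) and towards PC3 at BASP1 (-1.52), DDC (-0.67), EFNA5 (-0.75), EFNB2 (-2.18), GUCY1A1 (-1.20), JAK2 (-1.34), MB (-1.18), PRKD1 (-0.68) and SEMA3C (-1.20). NTS itself fell on the LNCaP arrays, from 11.17 and 11.26 with GFP to 10.53 and 10.69 with Notch1. Its PC3 values fell more, from 3.38 and 3.99 to 1.77 and 1.75. The positive value for NTS thus rested on PC3 values that are read only as low.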

How the results depend on the processing

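Centring and the treatment of dim probe sets bore on the counts. Centring each array gave 3323 probe sets higher in LNCaP and 3852 lower, against 5067 and 2319 as deposited, and 549 and 1255 called in the interaction test. Quantile normalization of all 8 arrays gave 3471 higher and 3599 lower. With values under log2 5 raised to 5, 3054 were higher, 1751 lower, and the interaction test called 512 towards LNCaP and 551 towards PC3. The replicate number as a block took that test to 1445 and 1434, and the block with centring to 895 and 1785, with 4212 probe sets lower in the control comparison. In the control comparison the block changed no call of the 213 genes named, nor of the 78 counts of list members by over 1.5 times. Leaving out 1 array at a time gave 4278 to 5014 higher, 1989 to 2270 lower, 2106 to 2179 and 1049 to 1075 at 2-fold, and 400 to 1348 and 550 to 1316 in the interaction test, where a group of 1 array was assumed to vary like the others.

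Counts at 2-fold stayed within 1.5 times of 2108 and 1057 under every alternative run. Of the list counts 22 of 78 moved further than that with centring, 10 with quantile normalization, 7 with the log2 5 floor, 5 above the 25th percentile of level, 3 to 5 without 1 array and 2 with the mean of all probe sets of a gene. KRT8 and KRT5, which were not called, had no settled sign: KRT8 stood at -0.25 after centring, with or without the block, and at -0.13 to 0.19 without 1 array (-0.13 without LNCaP GFP replicate 1, -0.034 without PC3 GFP replicate 2), and KRT5 at -0.055 after centring, with or without the block, and at -0.10 after quantile normalization. FASN, HOXB13 and KRT14 lost their calls with centring (0.18, 0.14 and 0.16) and without LNCaP GFP replicate 1 (0.41, 0.38 and 0.34), and KRT14 also without PC3 GFP replicate 2 (0.37). ERBB3 gained one without PC3 GFP replicate 1 (0.54). On the scale raised to log2 5, BTC, CTNNB1, HOXB13, JAK2, KDR, MDM2, SCG5, SYT1 and ZEB1 were not called, and 5 of them stood at 0. The causes were not tested.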

Other observations

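The measured neighbours of CAV1 and CTNNA1 on their chromosomes are given as values. They were chosen after their values were seen, and their order is that of RefSeq among the measured genes. From CAV1 outwards on one side come CAV2, TES, TFEC and MDFIC, with differences of -6.67, -2.12, 0.58 and -2.93, and on the other MET, CAPZA2, WNT2 and CFTR, with -1.72, 0.41, 0.58 and 0.38, against -7.32 for CAV1 itself. TES encodes an actin regulator and MET the hepatocyte growth factor receptor. By limma's adjusted p every one of these was called except CFTR (adjusted p = 0.0559), and MDFIC, TFEC, WNT2 and CFTR lay under log2 5 in both lines.

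Around CTNNA1 (6.38) the adjacent measured genes were HSPA9 (-0.22, limma adjusted p = 0.210) and LRRTM2 (0.42, limma adjusted p = 0.161, under log2 5 in both lines), which were not called. Further out, ETF1 (1.14), KDM3B (1.71) and PURA (2.26) were called higher in LNCaP and HBEGF (-1.57) and PFDN1 (-0.65) lower, while REEP2 (-0.14), EGR1 (-0.03) and NRG2 (0.09) were not called. Of all probe sets 58.8% were called, so a called neighbour is no rarity here.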
